A study of Mus musculus with 12 samples.

Results

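The 10 genes described here are the basophil and mast cell genes Mcpt8, Prss34, Cd200r3, Fcer1a, Ms4a2, Fcer1g, Hdc, Cpa3, Kit and Gata2, of 22180 genes measured on mouse CD4+ T cell arrays. They were selected on measured values: their log2 intensities in these arrays, above all their high levels in Treg cells cultured with OX40L and JAG1 compared with fresh Treg cells, were known when they were picked. Each was matched by symbol and each had 1 row in the deposited table, so none needed a choice between rows. None was removed by a filter on low values.

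The study asks how T cell expansion that bypasses the T cell receptor differs from expansion through it. The starting material was the total CD4+ fraction of the spleen. The mice, aged 8 weeks, were of the strain C57BL/6-Foxp3.GFP, in which GFP reports the transcription factor Foxp3. Cells were taken fresh (control) or were cultured for 3 days. One culture had antibodies to CD3 and CD28 at 2 µg/ml each, which act through the T cell receptor and its costimulator, and the other had soluble OX40L at 5 µg/ml and JAG1 at 1 µg/ml, ligands of OX40 and of Notch receptors. A sort by Foxp3 then gave Treg (Foxp3+) and Teff (Foxp3-) cells, hence 6 groups of 2 arrays, replicates 1 and B. All groups share the reporter allele, and Teff here means every Foxp3- cell of the CD4+ preparation. Since the fresh cells had no culture step, culture and treatment cannot be told apart wherever fresh cells are the reference. Whether replicates came from separate mice or cultures is not labelled. The p-values therefore cover the variation among these samples alone, and that may be technical.

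Basophils and mast cells are granulocytes that carry the high-affinity IgE receptor and store histamine and proteases in granules. The receptor has an IgE-binding alpha chain (Fcer1a), a signal-amplifying beta chain (Ms4a2) and a gamma chain (Fcer1g) shared with other Fc receptors of myeloid cells. Mouse basophils are marked by the granule proteases Mcpt8 and Prss34, while mature mast cells depend on the growth factor receptor Kit and store chymases and tryptases. T cells are not known as a usual source of these granule proteases.

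Foxp3, whose reporter defined the sort, matched the labels in all 12 arrays. Its log2 intensity was 10.36 to 11.22 in the 6 Treg arrays and 5.58 to 6.81 in the 6 Teff arrays. The OX40L-JAG1 Teff arrays stood apart: their replicates correlated over genes at 0.881, where the other pairs reached 0.984 to 0.994, and their SD over genes was 1.49 and 1.71, where the other arrays had 1.95 to 2.19. All 10 genes were higher in their replicate 1 than in B, by a median of 1.06. The T cell genes Cd3e (9.77 and 9.73, replicate 1 then B) and Cd4 (9.57 and 9.09) were lower there than in every other group. Values that involve these arrays are therefore given per array. Intensities have no true zero, so the lowest array median over genes, 4.87, served as a floor. A group mean under it was not shown to be above background, and a fold against such a group is a lower bound computed from the floor. This floor was set with the values already seen. The OX40L-JAG1 Teff arrays had the highest medians, 5.12 and 5.17, so a mean there just above 4.87 may still be background.

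Over the 12 arrays, Mcpt8, Prss34, Hdc and Cpa3 moved most closely with one another, and Kit moved less closely with them. The 250 bases before the annotated start are shown for these 4 genes and for Kit. They are RefSeq sequences of GRCm38.p6, written 5′ to 3′ on the strand of the gene, at chr14:56085198-56085447 (Mcpt8, minus strand), chr17:25298144-25298393 (Prss34, plus strand), chr2:126618679-126618928 (Hdc, minus strand), chr3:20242182-20242431 (Cpa3, minus strand) and chr5:75574737-75574986 (Kit, plus strand, the first of 2 annotated windows). Capitals mark matches to the GATA motif, the site bound by the Gata factors, searched on both strands as AGATAA or AGATAG and also as TGATAA or TGATAG.
Mcpt8: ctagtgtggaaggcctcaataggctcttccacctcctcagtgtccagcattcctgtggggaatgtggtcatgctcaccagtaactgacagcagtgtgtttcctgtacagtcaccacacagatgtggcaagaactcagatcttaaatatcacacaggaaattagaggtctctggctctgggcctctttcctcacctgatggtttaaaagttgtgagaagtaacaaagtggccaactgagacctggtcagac
Prss34: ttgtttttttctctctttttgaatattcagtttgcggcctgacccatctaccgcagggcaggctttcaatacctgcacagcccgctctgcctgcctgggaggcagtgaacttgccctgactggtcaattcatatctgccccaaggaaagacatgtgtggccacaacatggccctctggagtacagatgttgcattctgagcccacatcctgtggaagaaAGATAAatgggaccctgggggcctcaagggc
Hdc: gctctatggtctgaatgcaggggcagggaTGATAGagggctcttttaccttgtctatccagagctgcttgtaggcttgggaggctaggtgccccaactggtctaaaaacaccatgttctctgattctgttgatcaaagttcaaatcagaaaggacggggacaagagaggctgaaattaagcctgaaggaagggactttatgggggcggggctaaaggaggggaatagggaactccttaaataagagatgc
Cpa3: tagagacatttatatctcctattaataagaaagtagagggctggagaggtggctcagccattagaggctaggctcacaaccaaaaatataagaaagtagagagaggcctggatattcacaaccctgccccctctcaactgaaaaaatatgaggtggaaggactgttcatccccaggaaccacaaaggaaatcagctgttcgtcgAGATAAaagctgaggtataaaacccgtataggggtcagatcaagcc
Kit: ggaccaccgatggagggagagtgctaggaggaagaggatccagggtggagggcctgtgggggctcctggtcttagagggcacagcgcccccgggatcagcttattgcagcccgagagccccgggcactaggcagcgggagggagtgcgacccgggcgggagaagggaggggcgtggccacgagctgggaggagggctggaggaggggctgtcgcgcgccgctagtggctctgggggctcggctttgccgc

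All 10 genes matched the promoter table. A GATA match lay in the window of 6 of them: 3 each in Cd200r3 and Ms4a2, and 1 each in Prss34, Fcer1a, Hdc and Cpa3. The match of Cpa3 lay 46 to 41 bases before the start, that of Prss34 31 to 26 and that of Hdc 221 to 216. Mcpt8, Fcer1g, Kit and Gata2 had none in their windows. Over 32851 windows of this length, 26.5% held at least 1 match. The E-box forms CACGTG and CATGTG, letters that the mast cell factor Mitf is known to bind, were found in Prss34 and Fcer1a, 2 of 10 genes, against 17.6% of windows. These matches describe letters only.

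**Figure D1:**
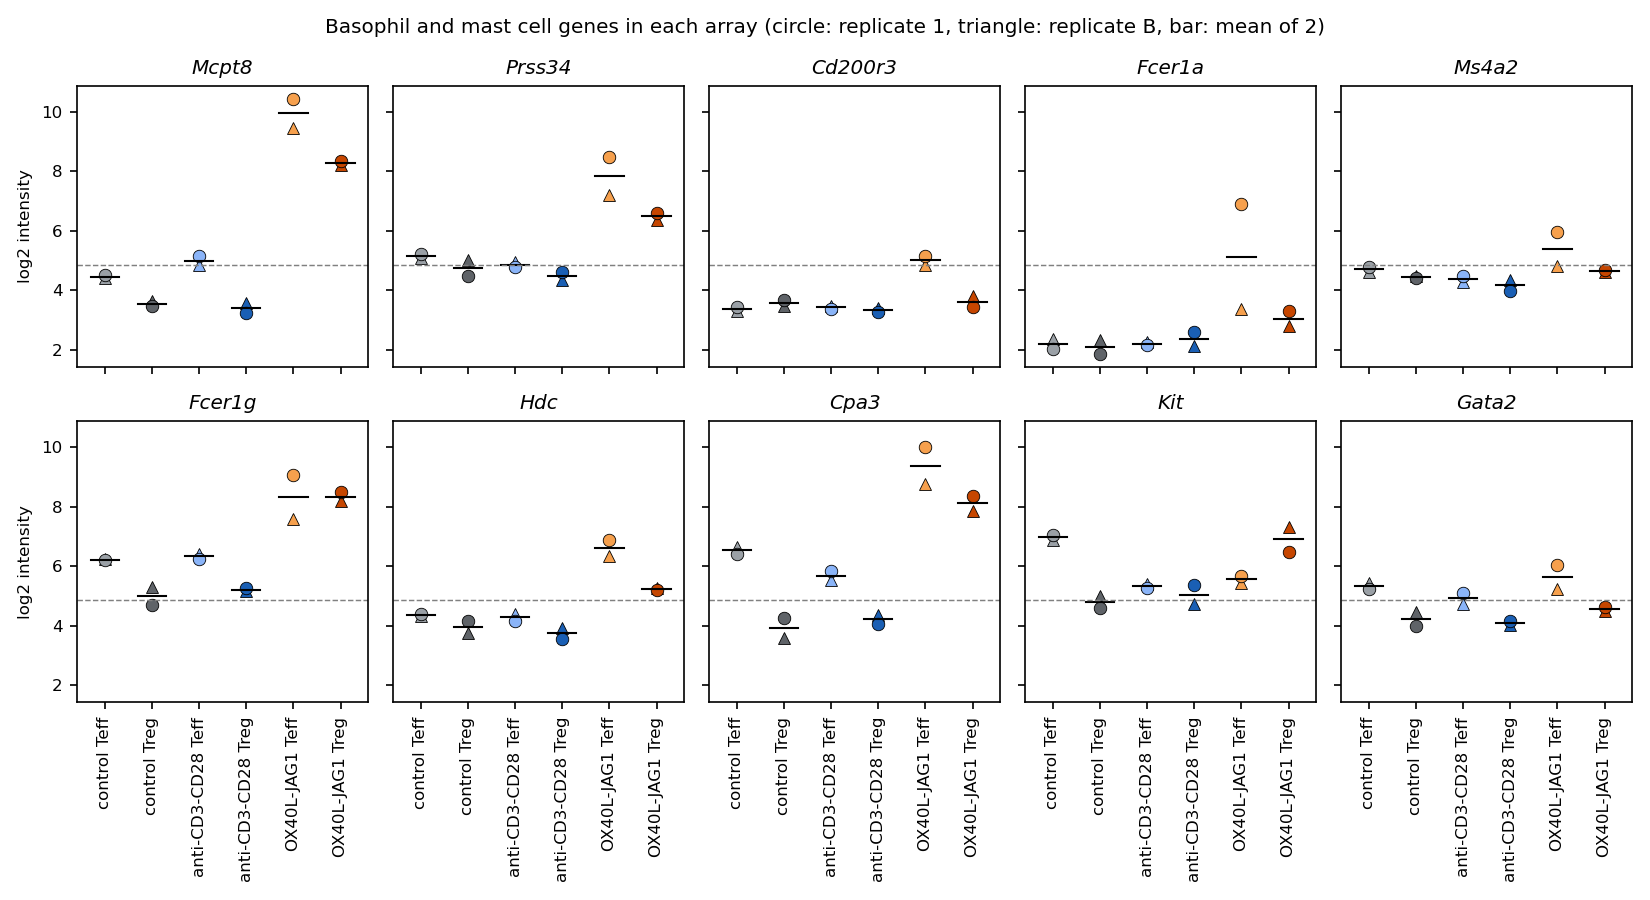
log2 intensity of each of the 10 genes (y axis) in the 2 arrays of each of the 6 groups (x axis). Circles are replicate 1, triangles replicate B, horizontal bars the mean of both, and the dashed line the floor of 4.87. Mcpt8, Prss34, Fcer1g, Hdc and Cpa3 are high in all 4 OX40L-JAG1 arrays, while Kit is high in control Teff and OX40L-JAG1 Treg cells.

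The granule and mediator genes reached their highest values in the OX40L-JAG1 cultures, in both sorts. Compared with fresh cells of the same sort, both OX40L-JAG1 arrays lay above both control arrays for 9 of 10 genes in Treg cells, where 23.2% of all genes did so, and for 8 of 10 in Teff cells, against 39.1%. The median difference over the 10 genes was 1.50 on the log2 scale in Treg cells and 2.19 in Teff cells, beside -0.01 and 0.18 over all genes tested. The genes were chosen with these comparisons in view, so these figures are a description and carry no test. Against anti-CD3-CD28 cells of the same sort, all 10 genes lay above in Treg and in Teff cells, against 26.8% and 26.5% of all genes, with medians of 1.67 and 2.17. Taken alone, OX40L-JAG1 Teff replicate 1 lay above both control Teff arrays for 9 of 10 genes with a median difference of 2.69, and replicate B for 8 of 10 with 1.42. In bulk samples such as these, a change in the number of cells of a type and a change of RNA per cell cannot be told apart.

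Mcpt8, mast cell protease 8, is the granule protease by which mouse basophils are usually recognised. Its log2 intensity in replicates 1 and B was 10.44 and 9.47 in OX40L-JAG1 Teff cells and 8.36 and 8.21 in OX40L-JAG1 Treg cells. Control cells read 4.51 and 4.41 in Teff and 3.46 and 3.65 in Treg, and anti-CD3-CD28 cells 5.14 and 4.86 in Teff and 3.24 and 3.57 in Treg. The 4 OX40L-JAG1 arrays lay far above all others, and the Teff pair lay above the Treg pair. The mean was at least 33.9-fold higher in OX40L-JAG1 than in control Teff cells and at least 10.7-fold higher in OX40L-JAG1 than in control Treg cells. Among cultured Teff cells, where anti-CD3-CD28 cells reached a mean of 5.00, OX40L-JAG1 cells were 30.9-fold higher. OX40L-JAG1 Teff cells were 3.17-fold higher than OX40L-JAG1 Treg cells. After quantile normalization the fold over anti-CD3-CD28 Teff cells was 48.0 and that over OX40L-JAG1 Treg cells 5.39.

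Prss34, a tryptic serine protease of basophil granules, was likewise highest in OX40L-JAG1 cells of both sorts. For Prss34 the OX40L-JAG1 arrays read 8.47 and 7.21 in Teff and 6.60 and 6.37 in Treg cells. Uncultured cells read 5.23 and 5.07 in Teff and 4.49 and 5.03 in Treg, and anti-CD3-CD28 cells 4.78 and 4.94 in Teff and 4.61 and 4.35 in Treg. Both pairs of OX40L-JAG1 arrays were above every other array and the Teff pair was the higher. The mean was 6.45-fold higher than control in Teff cells (11.4-fold after quantile normalization) and at least 3.07-fold higher in Treg cells. The 8 other arrays lay close to the floor.

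Cpa3, the carboxypeptidase found in the granules of both mast cells and basophils and in their progenitors, differed from Mcpt8 by its level in fresh cells. For Cpa3 the OX40L-JAG1 arrays read 10.01 and 8.74 in Teff and 8.37 and 7.84 in Treg cells. The fresh cells read 6.41 and 6.64 in Teff and 4.25 and 3.60 in Treg, and anti-CD3-CD28 cells 5.84 and 5.52 in Teff and 4.05 and 4.36 in Treg. The OX40L-JAG1 arrays were the highest, and control Teff cells came next, above anti-CD3-CD28 Teff cells and well above both other Treg groups. The mean was 7.21-fold higher in OX40L-JAG1 than in control Teff cells, and 12.9-fold after quantile normalization. In Treg cells, whose control was below the floor, it was at least 9.43-fold higher.

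Hdc encodes histidine decarboxylase, the enzyme that makes histamine. For Hdc the OX40L-JAG1 arrays read 6.89 and 6.34 in Teff and 5.18 and 5.27 in Treg cells. Control cells read 4.38 and 4.31 in Teff and 4.15 and 3.76 in Treg, and anti-CD3-CD28 cells 4.16 and 4.40 in Teff and 3.56 and 3.92 in Treg. Only the 4 OX40L-JAG1 arrays lay above the floor, and the Teff pair exceeded the Treg pair by 2.62-fold (4.16-fold after quantile normalization). The mean was at least 3.36-fold higher than control in Teff cells and at least 1.28-fold higher in Treg cells. The log2 difference from control Teff cells was 2.27, and 2.86 after quantile normalization.

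The 3 chains of the IgE receptor did not move alike. Fcer1g, the shared gamma chain, was above the floor in 11 of 12 arrays. For Fcer1g the OX40L-JAG1 arrays read 9.06 and 7.58 in Teff and 8.49 and 8.18 in Treg cells. Uncultured cells read 6.20 and 6.24 in Teff and 4.70 and 5.30 in Treg, and anti-CD3-CD28 cells 6.25 and 6.40 in Teff and 5.25 and 5.15 in Treg. The mean was 10.1-fold higher in OX40L-JAG1 than in control Treg cells and 4.30-fold higher in Teff cells, where quantile normalization gave 8.34-fold. Its means in OX40L-JAG1 Treg and Teff cells, 8.34 and 8.32, did not differ beyond the spread of the Teff pair, unlike those of Mcpt8. Quantile normalization over the genes put the Treg mean 1.02 below the Teff mean, with no overlap.

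Fcer1a, the chain that binds IgE, reached the floor in 1 array of 12. For Fcer1a the OX40L-JAG1 arrays read 6.90 and 3.37 in Teff and 3.29 and 2.79 in Treg cells. The fresh cells read 2.03 and 2.37 in Teff and 1.86 and 2.34 in Treg, and anti-CD3-CD28 cells 2.17 and 2.26 in Teff and 2.59 and 2.13 in Treg. Replicate 1 of OX40L-JAG1 Teff cells was far above its partner, and every other array was under the floor. No fold is given for Treg cells, where all groups were below the floor. Ms4a2, the beta chain, showed the same single high array at a smaller size. For Ms4a2 the OX40L-JAG1 arrays read 5.95 and 4.81 in Teff and 4.70 and 4.62 in Treg cells. Control cells read 4.80 and 4.63 in Teff and 4.41 and 4.48 in Treg, and anti-CD3-CD28 cells 4.49 and 4.28 in Teff and 3.996 and 4.34 in Treg. The Ms4a2 mean of OX40L-JAG1 Teff cells was at least 1.43-fold above control, but replicate B lay within 0.09 of the control mean. After quantile normalization the OX40L-JAG1 and control Teff arrays of Ms4a2 overlapped.

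Cd200r3, an activating receptor of basophils and mast cells, was at the floor or below it outside 1 array. For Cd200r3 the OX40L-JAG1 arrays read 5.17 and 4.85 in Teff and 3.44 and 3.81 in Treg cells. Uncultured cells read 3.46 and 3.31 in Teff and 3.67 and 3.47 in Treg, and anti-CD3-CD28 cells 3.38 and 3.49 in Teff and 3.27 and 3.41 in Treg. Both OX40L-JAG1 Teff arrays lay above the other 10, whereas OX40L-JAG1 Treg and control Treg arrays overlapped. The bound on the fold in Teff cells, computed from the floor of 4.87, is 1.10. The OX40L-JAG1 Teff arrays had medians of 5.12 and 5.17, above the Cd200r3 mean of 5.01 there. The gene was thus not clearly above background in this group, and the bound is not secure. Cd200r3, Fcer1a and Ms4a2 thus had no OX40L-JAG1 Treg mean above the floor.

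Kit and Gata2 followed another order. Kit is the receptor of stem cell factor, carried by mast cells and blood progenitors and largely lost by mature basophils. For Kit the OX40L-JAG1 arrays read 5.68 and 5.43 in Teff and 6.48 and 7.32 in Treg cells. The fresh cells read 7.04 and 6.88 in Teff and 4.59 and 4.99 in Treg, and anti-CD3-CD28 cells 5.28 and 5.40 in Teff and 5.36 and 4.72 in Treg. OX40L-JAG1 Treg and control Teff arrays were both high, and their ranges overlapped. Compared with fresh cells, the Kit mean was at least 4.09-fold higher in OX40L-JAG1 Treg cells but 2.65-fold lower in OX40L-JAG1 Teff cells, so it differed in opposite directions in the sorts. Kit was the single gene of the 10 whose OX40L-JAG1 Teff arrays both lay below both control Teff arrays. It was also the single one whose OX40L-JAG1 Treg arrays both lay above both OX40L-JAG1 Teff arrays.

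Gata2 encodes a transcription factor of blood stem cells, basophils and mast cells. For Gata2 the OX40L-JAG1 arrays read 6.03 and 5.23 in Teff and 4.61 and 4.49 in Treg cells. Control cells read 5.22 and 5.44 in Teff and 3.98 and 4.47 in Treg, and anti-CD3-CD28 cells 5.11 and 4.73 in Teff and 4.14 and 4.04 in Treg. The highest array was OX40L-JAG1 Teff replicate 1, and its replicate B lay between the 2 control Teff arrays. All Treg means were below the floor. The OX40L-JAG1 and control Teff arrays of Gata2 thus overlapped.

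**Figure D2:**
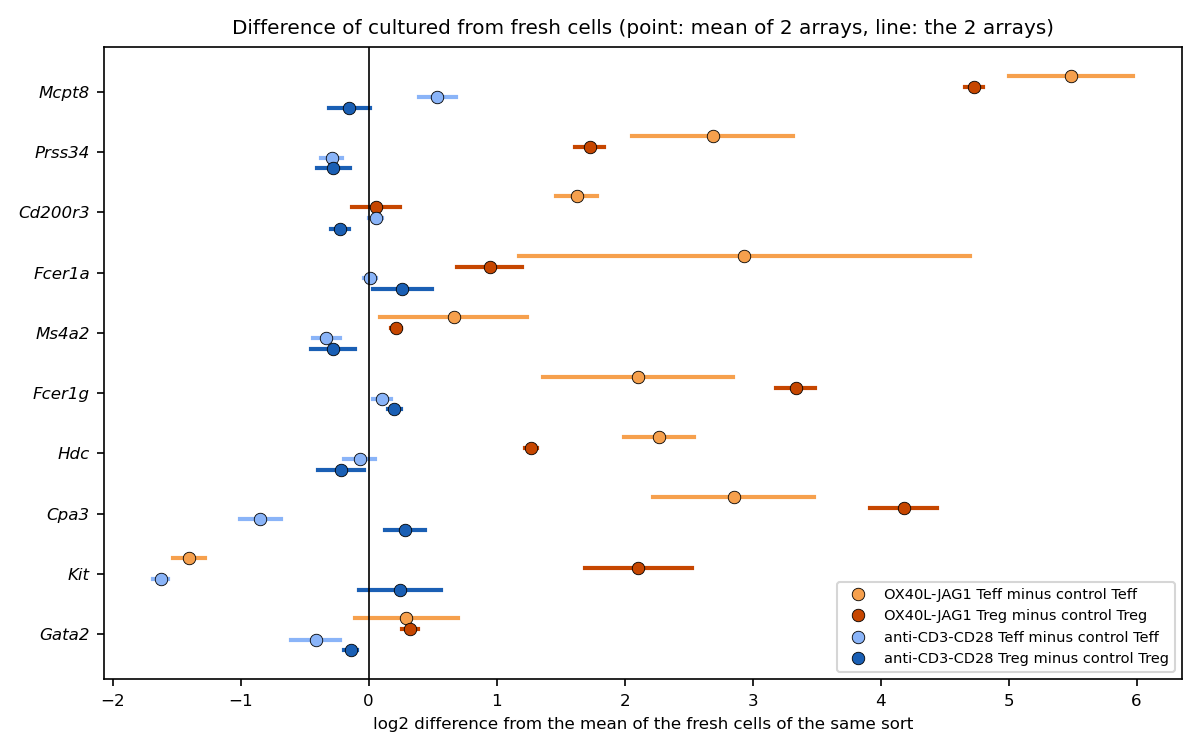
Difference of each gene (y axis) in cultured cells from the mean of the fresh cells of the same sort (x axis, log2). Points are means of 2 arrays, and lines join the 2 arrays. OX40L-JAG1 points reach 5.49 for Mcpt8 in Teff cells, anti-CD3-CD28 points stay near 0 for most genes, and Kit is at 2.11 in OX40L-JAG1 Treg cells against -1.40 in OX40L-JAG1 Teff cells.

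Within the OX40L-JAG1 cultures, both Treg arrays lay below both Teff arrays for 8 of 10 genes, where 34.7% of all genes did so. The median difference, Treg minus Teff, was -1.31 beside -0.14 over all genes. Without OX40L-JAG1 Teff replicate 1 this median was -0.66. The size of the difference for a single gene therefore depends on which Teff array is used. After quantile normalization the arrays of Fcer1a and Ms4a2 overlapped between the sorts, while those of Fcer1g became separate, at -1.02. The OX40L-JAG1 Treg means of Cd200r3, Fcer1a, Ms4a2 and Gata2 were under the floor.

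The comparisons without OX40L-JAG1 arrays were tested with limma over all 22180 genes. Among fresh cells, Cpa3 and Kit were lower in control Treg than in control Teff cells, 2 of 10 genes, where 2.51% of all genes were lower and 1.34% were higher. The log2 difference was -2.60 ± 0.38 (SE, adjusted p = 0.00267) for Cpa3 and -2.17 ± 0.30 (SE, adjusted p = 0.0018) for Kit, with both Treg arrays below both Teff arrays in each case. Control Teff cells exceeded control Treg cells at least 3.16-fold for Cpa3 and at least 4.27-fold for Kit. Gata2 did not pass at -1.11 ± 0.28 (SE, adjusted p = 0.0514), and neither did Fcer1g or Mcpt8, though for all 3 the Treg arrays were below. These control arrays also entered the comparison by which the genes were chosen, so these p-values are not independent of that choice. With the OX40L-JAG1 Teff arrays left out of the fit, Mcpt8, Fcer1g and Gata2 passed as well, which made 5 of 10, while the share of all genes called lower became 8.93%. Without control Treg replicate B, Kit alone was called, and Cpa3 had an adjusted p of 0.0507.

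With anti-CD3-CD28, none of the granule genes passed as higher than in fresh cells. In Teff cells Kit was the single gene called, with a log2 difference of -1.62 ± 0.30 (SE, adjusted p = 0.00345), which is 3.08-fold lower. Of all genes, 9.75% were lower and 5.44% were higher, so 1 of 10 lower is about the background. Mcpt8 differed by 0.54 ± 0.28 (SE, adjusted p = 0.254) and Cpa3 by -0.85 ± 0.38 (SE, adjusted p = 0.172). Both passed once the OX40L-JAG1 Teff arrays were left out, Mcpt8 higher and Cpa3 lower, when 12.5% of all genes were higher and 16.5% lower. In Treg cells none of the 10 passed by limma and none had an unadjusted p under 0.05, while 8.08% of all genes were higher and 1.97% lower. The difference of Mcpt8 in Treg cells was -0.15 ± 0.28 (SE, adjusted p = 0.82) with a 95% interval from -0.77 to 0.47. Hdc, Prss34, Cd200r3, Fcer1a, Ms4a2, Fcer1g and Gata2 passed in neither sort. The values of both sorts were known when the genes were picked, and the fresh Treg arrays entered that choice. The p-values against fresh cells are therefore not independent of it.

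Between the anti-CD3-CD28 sorts, Mcpt8 and Cpa3 were lower in Treg than in Teff cells, 2 of 10 genes, where 2.89% of all genes were lower and 9.03% were higher. These values too were known when the genes were picked, so the p-values are not independent of that choice. The log2 difference was -1.60 ± 0.28 (SE, adjusted p = 0.00493) for Mcpt8 and -1.47 ± 0.38 (SE, adjusted p = 0.0282) for Cpa3. Since the Treg means were below the floor, Teff cells were at least 1.10-fold and 1.75-fold higher. Fcer1g, Hdc and Gata2 had an unadjusted p under 0.05 in the same direction and did not pass the adjustment. They passed when the OX40L-JAG1 Teff arrays were left out, which made 5 of 10, when 10.4% of all genes were lower. Without anti-CD3-CD28 Teff replicate 1 or Treg replicate 1 neither gene passed, with adjusted p-values of 0.0591 and 0.0646 for Mcpt8 and 0.189 and 0.184 for Cpa3. Without replicate B of Teff or of Treg cells, Mcpt8 alone passed, and Cpa3 had adjusted p-values of 0.0742 and 0.108.

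Kit was the single gene of the 10 whose response to anti-CD3-CD28 passed the test of a difference between the sorts. The response in Treg cells minus that in Teff cells was 1.87 ± 0.42 (SE, adjusted p = 0.0156). Of all genes, 13.1% passed this interaction in either direction, so 1 of 10 is no more than the background. The fresh Treg arrays used for choosing the genes enter it, and its p-values are not independent of that choice. The adjusted p lay between 0.0556 and 0.0768 when control Teff replicate 1 or B, control Treg replicate 1, or replicate 1 of anti-CD3-CD28 Teff or Treg cells was left out, so this call rests on each of those 5 arrays. Cpa3 did not pass, at 1.13 ± 0.53 (SE, adjusted p = 0.188), nor did Mcpt8. With the OX40L-JAG1 Teff arrays left out, both passed together with Kit.

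The pathway and cell type genes that follow come from lists of genes that are not among the 10, put together with earlier results of these arrays known. They were tested with limma in all comparisons, in which OX40L-JAG1 Treg cells differed from control Treg cells at 0.996% of all genes upwards and 0.559% downwards. OX40L-JAG1 Teff cells differed from control Teff cells at 20.0% upwards and 26.9% downwards. With both OX40L-JAG1 Teff arrays removed from the fit, 3.4% of all genes were higher and 2.01% lower in OX40L-JAG1 Treg cells. The rises of the lists there then numbered 3 for IgE signalling, 2 for mediators, 6 for growth and alarmin receptors, 7 for surface and secreted genes, 4 for transcription factors, 6 for monocyte, 4 for platelet and 2 for eosinophil markers. In Teff cells without OX40L-JAG1 Teff replicate B, 6 genes of IgE signalling, 9 of the chymase locus, 6 transcription factors and 12 monocyte markers rose. Without replicate 1 these numbers were 2, 4, 3 and 8. Of all genes, 23.6% rose and 25.3% fell in Teff cells without replicate B, and 28.5% rose and 33.2% fell without replicate 1. After quantile normalization 9.1% rose and 12.6% fell.

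Of 12 measured genes of IgE receptor signalling, 1 rose and none fell in OX40L-JAG1 Treg cells, with a median of 0.30. It was Fcgr2b, the inhibitory Fc receptor, at 1.89 ± 0.25 (SE, adjusted p = 0.00322), from 3.95 and 4.23 in control Treg arrays to 6.02 and 5.94. In Teff cells 2 rose, Fcgr2b and the activating Fc receptor Fcgr3 (0.90 ± 0.21 SE, adjusted p = 0.00521), and 4 fell. Those that fell were Fyn, Lat, Plcg1 and Inpp5d, signalling genes that T cells also use, of which Inpp5d fell by the most at -2.26 ± 0.18 (SE, adjusted p = 2.27e-05). The kinase Syk did not pass in either sort, but it passed as higher in Treg cells with both OX40L-JAG1 Teff arrays removed, as did Fcgr3.

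Of 10 measured genes of histamine, serotonin and lipid mediators, 1 rose in OX40L-JAG1 Treg cells and 5 rose in Teff cells. Alox5ap, the partner protein of 5-lipoxygenase in leukotriene synthesis, rose in both, by 2.49 ± 0.40 (SE, adjusted p = 0.00937) in Treg and 2.34 ± 0.40 (SE, adjusted p = 0.000941) in Teff cells. Its values were 9.59 and 7.94 in OX40L-JAG1 Teff cells and 7.71 and 7.52 in Treg cells, above all 8 other arrays. In Teff cells Alox5 itself, the amine transporter Slc18a2, the histamine-degrading enzyme Hnmt and the histamine receptor Hrh4 also rose, and the receptor Hrh2 fell. Hnmt stayed below the floor in every group. Tph1, which starts serotonin synthesis, did not pass in either sort. After quantile normalization the count of rises in Teff cells was 2 instead of 5.

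Of 11 measured receptors for basophil growth factors and alarmins, 4 rose in OX40L-JAG1 Treg cells. Csf2rb, the common beta chain used by the receptors of IL-3, IL-5 and GM-CSF, rose by 1.66 ± 0.33 (SE, adjusted p = 0.0319) and its relative Csf2rb2, specific to IL-3, by 1.80 ± 0.24 (SE, adjusted p = 0.00299). Il7r, the IL-7 receptor that T cells themselves carry, and Ifngr1, an interferon receptor chain, rose by 1.47 ± 0.19 (SE, adjusted p = 0.00299) and 1.95 ± 0.19 (SE, adjusted p = 0.000597). In Teff cells Csf2rb and Csf2rb2 rose and Il7r, Il18r1 and Il4ra fell. Il7r thus differed from control in opposite directions in the sorts, as Kit did. Il3ra, the alpha chain that binds IL-3, did not pass in either. After quantile normalization 6 of the 11 rose and none fell in Teff cells.

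Of 16 other surface and secreted genes of basophils, 4 rose in OX40L-JAG1 Treg cells and 9 rose and 1 fell in Teff cells. Lilrb4a, an inhibitory receptor also present on activated T cells, rose by 3.43 ± 0.32 (SE, adjusted p = 0.000429) in Treg and 4.48 ± 0.32 (SE, adjusted p = 1.43e-05) in Teff cells. The anti-CD3-CD28 Treg arrays, at 11.21 and 11.33, came close to the OX40L-JAG1 Treg arrays and lay above both OX40L-JAG1 Teff arrays. The chemokine genes Ccl3 and Ccl9 rose in Treg cells by 2.49 ± 0.40 (SE, adjusted p = 0.0084) and 2.35 ± 0.35 (SE, adjusted p = 0.00552). Ccl6, a myeloid chemokine, rose in Teff cells by 3.92 ± 0.61 (SE, adjusted p = 0.000499) and did not pass in Treg cells. Cd63, a granule membrane protein used to mark degranulated basophils, rose in Teff cells by 2.40 ± 0.55 (SE, adjusted p = 0.00477), and its values there were 8.52 and 6.15, far apart. L1cam fell in Teff cells, and Itga2, the integrin chain CD49b, did not pass in either sort. With both OX40L-JAG1 Teff arrays removed, Itga2 and Ccl6 passed as higher in OX40L-JAG1 Treg cells. Itga2 was 6.14 and 6.54 there against 4.97 and 5.14 in control Treg cells. Of the same 16 genes, 9 rose with anti-CD3-CD28 in each sort, where 8.08% of all genes rose in Treg and 5.44% in Teff cells. Mcpt8 passed in neither sort under this treatment. With the OX40L-JAG1 Teff arrays left out of the limma fit, Mcpt8 passed as higher in Teff cells (0.54, adjusted p = 0.0348).

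Genes that set mast cells apart from basophils were mostly dim. Of 16 mast cell granule and receptor genes, 11 had means below the floor in all 6 groups, among them the chymases Cma1, Mcpt1, Mcpt2 and Mcpt4, the tryptases Tpsb2, Tpsab1 and Tpsg1 and the receptors Mrgprb1 and Mrgprb2. None was called in OX40L-JAG1 Treg cells, where the list median was 0.02, and with both OX40L-JAG1 Teff arrays removed 1 was (Ctsg, also a neutrophil granule protease). In OX40L-JAG1 Teff cells 7 rose and 1 fell, but 5 of the 7 were below the floor in every group. After quantile normalization none of the 16 was called in Teff cells. The one that fell was Srgn, the proteoglycan core of granules, which T cells also express, at -1.21 ± 0.27 (SE, adjusted p = 0.00458). Srgn made up 60.3 to 91.2% of the summed intensity of the list. The sums without it were 240 to 245 in OX40L-JAG1 Treg, 287 to 594 in OX40L-JAG1 Teff, 207 to 231 in control Treg, 249 to 274 in control Teff, 188 to 207 in anti-CD3-CD28 Treg and 248.4 to 249.8 in anti-CD3-CD28 Teff arrays. Values of Cma1 were 4.97 and 3.04 in OX40L-JAG1 Teff and 3.42 and 3.28 in Treg cells, against 2.96 and 3.12 in control Teff cells.

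The neighbours of Mcpt8 in the chymase locus, a cluster of granule protease genes, were mostly dim. Of 13 measured, 9 were below the floor in all groups, and none was called in OX40L-JAG1 Treg cells. In Teff cells 6 rose, among them Cma2 at 1.89 ± 0.30 (SE, adjusted p = 0.000532), and 2 rose after quantile normalization. Gzmb, granzyme B of cytotoxic cells, was highest in the anti-CD3-CD28 groups, at 11.75 and 11.86 in Teff cells, whereas Mcpt8 was highest in the OX40L-JAG1 groups.

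Blood progenitor genes were high where Kit and Cpa3 were high among fresh cells. Of 15 measured, 7 were lower in control Treg than in control Teff cells and none was higher, with a list median of -1.11 beside 0.02 over all genes. Muc13, a mucin of progenitors, differed by -3.16 ± 0.21 (SE, adjusted p = 1.29e-05), and Mpo, the granule peroxidase of early myeloid cells, by -2.97 ± 0.23 (SE, adjusted p = 4.39e-05). Mpo was 7.78 and 7.72 in control Teff and 5.09 and 4.47 in control Treg cells. Angpt1, Sox4 and Myb were also lower, as were the early granule proteases Elane and Prtn3, which were picked out after their values were seen. Compared with control Teff cells, 6 progenitor genes fell and 1 (Hoxa9, below the floor in every group) rose in OX40L-JAG1 Teff cells, where Mcpt8 was highest. Without OX40L-JAG1 Teff replicate B, 4 rose and 6 fell, and without replicate 1, 2 rose and 8 fell. In OX40L-JAG1 Treg cells, where Kit was high, none was called, and Cd34 was 4.24 and 4.88. With both OX40L-JAG1 Teff arrays removed, 3 were called there, all higher (Mpo, Elane and Ctsg).

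Of 16 transcription factors of basophils, mast cells and erythroid cells, 3 rose in OX40L-JAG1 Treg cells. They were Gata1 (1.10 ± 0.24 SE, adjusted p = 0.0465), Spi1, which encodes the myeloid factor PU.1 (1.45 ± 0.25 SE, adjusted p = 0.0141), and Bhlhe40 (1.96 ± 0.22 SE, adjusted p = 0.00131), which activated T cells also express. In OX40L-JAG1 Teff cells Spi1 rose, with a difference of 1.14 ± 0.25 (SE, adjusted p = 0.00387), while Gata1 fell, with -0.95 ± 0.24 (SE, adjusted p = 0.00772), so that Gata1 too differed in opposite directions. Gata1 was highest in anti-CD3-CD28 Treg cells (7.72 and 7.71). Of the 16, 3 rose and 7 fell in Teff cells, and 4 rose and 2 fell after quantile normalization. Zfpm1, the partner of Gata factors, fell by the most at -2.75 ± 0.19 (SE, adjusted p = 1.33e-05). The factors Cebpa and Cebpb, known for roles in basophil development, did not pass in either sort.

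The sums of neutrophil and of monocyte markers were highest in the OX40L-JAG1 arrays, as was that of the 10 genes. The other lists of blood cell markers did not follow this order in every array. The part of other blood cells in the results was not tested. Of 15 neutrophil markers, 6 rose in OX40L-JAG1 Treg and 12 rose in Teff cells, where 1 fell (Mpo, which is also a progenitor gene). With both OX40L-JAG1 Teff arrays removed from the fit, Treg cells had 9 rises and 1 fall. Their summed linear intensity was 1851 to 2239 in OX40L-JAG1 Treg, 4721 to 9536 in OX40L-JAG1 Teff, 357 to 367 in control Treg, 830 to 834 in control Teff, 463 to 489 in anti-CD3-CD28 Treg and 429 to 480 in anti-CD3-CD28 Teff arrays. The sum of the 10 genes was likewise highest in the OX40L-JAG1 arrays: 1165 to 1312 in OX40L-JAG1 Treg, 1705 to 3756 in OX40L-JAG1 Teff, 174 to 203 in control Treg and 451 in control Teff cells, 182 to 191 in anti-CD3-CD28 Treg and 315 to 325 in anti-CD3-CD28 Teff cells. S100a8, a calcium-binding protein abundant in neutrophils, rose by 6.26 ± 0.37 (SE, adjusted p = 2.93e-05) in Treg and 6.24 ± 0.37 (SE, adjusted p = 7.92e-06) in Teff cells. Ngp, a secondary granule protein, was 10.31 and 9.88 in OX40L-JAG1 Teff and 8.21 and 7.83 in Treg cells. Ly6g, the surface marker of mature mouse neutrophils, rose in Teff cells (2.50 ± 0.57 SE, adjusted p = 0.00463) and did not pass in Treg cells. It was 6.28 and 6.60 in anti-CD3-CD28 Teff cells, above OX40L-JAG1 Treg cells.

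Of 13 monocyte and macrophage markers, 3 rose in OX40L-JAG1 Treg and 8 in Teff cells. Their summed intensity was 1434 to 1597 and 1627 to 4449 there, 468 to 617 in control Treg, 632 to 641 in control Teff, 815 to 881 in anti-CD3-CD28 Treg and 1128 to 1151 in anti-CD3-CD28 Teff arrays. Lyz2, lysozyme of myeloid cells, rose by 4.39 ± 0.38 (SE, adjusted p = 0.000298) in Treg cells and Chil3, a chitinase-like protein, by 5.02 ± 0.54 (SE, adjusted p = 0.00105). Cd14, Mrc1 and Ms4a7 were below the floor in all groups, and Csf1r and Adgre1 were at 4.91 and 4.62 and 3.90 and 4.22 in OX40L-JAG1 Treg cells. Of 8 platelet markers, 3 rose in OX40L-JAG1 Treg cells, and 5 rose and 1 fell in Teff cells. Ppbp and Pf4, chemokines of platelet granules, were also high in anti-CD3-CD28 Teff cells, at 7.72 and 7.76 and 6.85 and 6.82. The platelet sums were 1150 to 1154 in OX40L-JAG1 Treg, 743 to 1418 in OX40L-JAG1 Teff, 338 to 363 in control Treg, 637 to 679 in control Teff, 1761 to 1791 in anti-CD3-CD28 Treg and 1928 to 2050 in anti-CD3-CD28 Teff arrays. Itgb3, an integrin chain that platelets share with other cells, made up 82.5 to 82.8% of the sum in anti-CD3-CD28 Treg and 72.2 to 73.6% in anti-CD3-CD28 Teff cells. Without it the sums were 557 to 678 in OX40L-JAG1 Treg, 526 to 1108 in OX40L-JAG1 Teff, 308 in anti-CD3-CD28 Treg and 537 to 542 in anti-CD3-CD28 Teff arrays.

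Eosinophil markers, of cells close to basophils in lineage, were mostly dim. Of 8 measured, 6 were below the floor in all groups, including Siglecf and Ccr3. None was called in OX40L-JAG1 Treg cells and 1 of the dim genes, Ear6, rose in Teff cells. Prg2, the major basic protein, was 7.92 and 6.01 in OX40L-JAG1 Teff, 6.55 and 5.79 in OX40L-JAG1 Treg and 6.17 and 5.99 in control Teff cells and did not pass. In control Treg cells Prg2 was 4.77 and 4.50, and with both OX40L-JAG1 Teff arrays removed it passed as higher in OX40L-JAG1 Treg cells. The list sums were 209 to 417 and 183 to 221 in OX40L-JAG1 Teff and Treg, 180 to 197 and 127 to 141 in control Teff and Treg, and 134 to 137 and 139 to 145 in anti-CD3-CD28 Teff and Treg arrays. Of 11 dendritic cell markers, 1 rose in OX40L-JAG1 Treg cells (H2-Ab1, an MHC class II chain, at 3.72 ± 0.33 SE, adjusted p = 0.000348) and 3 rose in Teff cells, and Itgax was below the floor in all groups. Cd209a made up 28.8 to 86.4% of their sums. The sums were 2099 to 3581 in OX40L-JAG1 Treg, 3295 to 5781 in OX40L-JAG1 Teff, 3965 to 4191 in control Treg, 1543 to 1670 in control Teff, 1690 to 1813 in anti-CD3-CD28 Treg and 3491 to 3797 in anti-CD3-CD28 Teff arrays.

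Erythroid and B cell markers were highest in control Teff cells, which also had more Kit and Cpa3 than control Treg cells. Of 6 erythroid markers, 4 were lower in control Treg than in control Teff cells. Car1, carbonic anhydrase of the erythroid lineage, differed by -4.68 ± 0.40 (SE, adjusted p = 7.44e-05). The erythroid sums were 1705 to 1770 in control Teff and 176 to 183 in control Treg arrays, against 247 to 396 and 196 to 200 in OX40L-JAG1 Teff and Treg and 342 to 361 and 128 to 147 in anti-CD3-CD28 Teff and Treg arrays. Of 10 B cell and plasma cell markers, 4 were lower in control Treg cells and none was called in OX40L-JAG1 Treg cells. Their sums were 1300 to 1314 in control Teff and 329 to 389 in control Treg, 375 to 591 and 321 to 344 in OX40L-JAG1 Teff and Treg, and 317 to 323 and 255 to 266 in anti-CD3-CD28 Teff and Treg arrays. The part of either list in the fresh Teff level of Kit and Cpa3 was not tested.

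Of 8 NK cell markers, none rose in OX40L-JAG1 cells, and 1 fell in Treg (Nkg7) and 3 in Teff cells, though 2 rose in Treg cells once both OX40L-JAG1 Teff arrays were removed. In Teff cells 3 rose and 3 fell without OX40L-JAG1 Teff replicate B, 1 rose and 5 fell without replicate 1, and none rose and 1 fell after quantile normalization. Of 9 T cell identity genes, none was called in OX40L-JAG1 Treg cells, whereas 7 fell and Foxp3 rose in Teff cells. The difference was -2.13 ± 0.18 (SE, adjusted p = 3.08e-05) for Cd3e and -2.55 ± 0.22 (SE, adjusted p = 2.97e-05) for Cd4. The summed T cell intensity was 4366 to 7221 in OX40L-JAG1 Teff arrays, against 15793 to 16439 in OX40L-JAG1 Treg, 17105 to 18146 in control Teff, 14850 to 16493 in control Treg, 9730 to 9893 in anti-CD3-CD28 Teff and 15741 to 16573 in anti-CD3-CD28 Treg arrays. In the deposited values, the group with the most Mcpt8 was thus the one with the lowest T cell sum. OX40L-JAG1 Treg cells combined high Mcpt8 with a T cell sum within the range of control cells. The OX40L-JAG1 Teff arrays also had the narrowest spread over genes, with an SD of 1.49 and 1.71. After quantile normalization 5 of the 9 T cell genes fell and 1 rose there against control Teff cells. The part of the narrow spread in the low T cell sum was not tested.

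**Figure D3:**
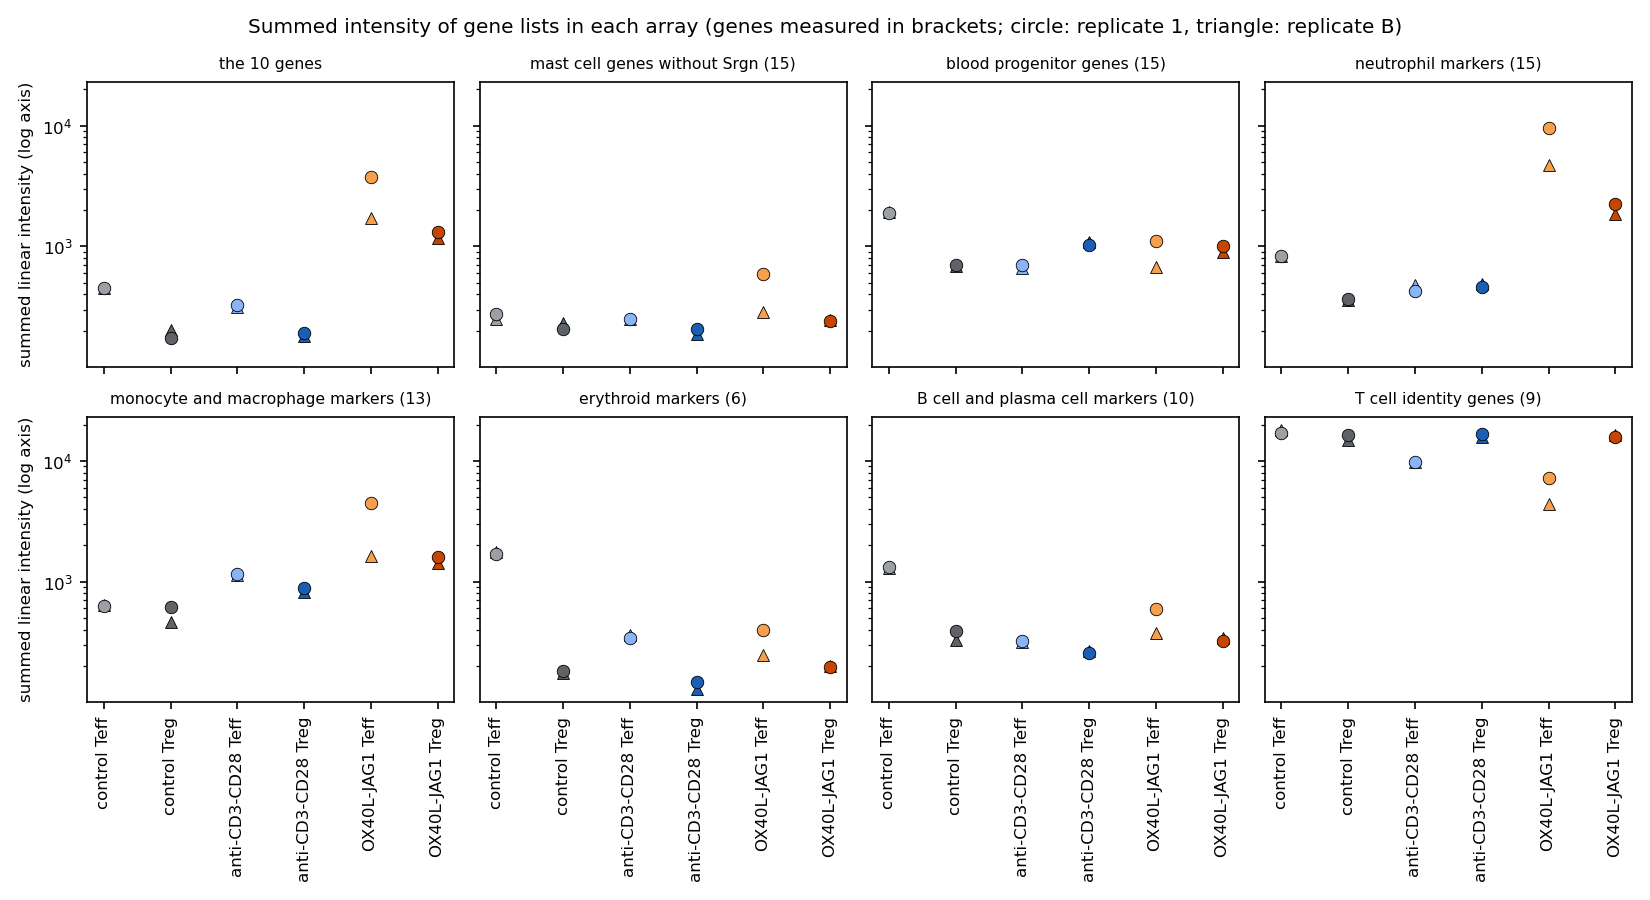
Summed linear intensity (y axis, log scale) of the 10 genes and of 7 marker lists in each array, the mast cell list without Srgn, by group (x axis). Circles are replicate 1 and triangles replicate B. The sums of the 10 genes and of the neutrophil markers are highest in the OX40L-JAG1 arrays, the progenitor, erythroid and B cell sums are highest in control Teff cells, and the mast cell sum without Srgn is highest in the OX40L-JAG1 Teff arrays, at 287 to 594.

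Among the 8909 genes other than the 10 whose group means spanned at least 1 on the log2 scale, those whose pattern over the 12 arrays was most like that of Mcpt8 were S100a8 (Pearson r = 0.990), Chil3 (0.987), S100a9 (0.985), Lyz2 (0.983), Mmp8 (0.981), Ngp (0.971), Ccl9 (0.963) and Ccl6 (0.960). All are expressed by neutrophils or other myeloid cells. The 12 arrays fall into 4 high and 8 low ones, which sets these values, and the pairs share the spread between replicates. Over the 8 arrays without OX40L-JAG1 the same 8 correlations were 0.452 (Ngp) to 0.792 (S100a9). Of the other 9 genes described here, Prss34 (0.963), Hdc (0.961), Fcer1g (0.952) and Cpa3 (0.949) came closest to Mcpt8 over 12 arrays, followed by Cd200r3 (0.804), Fcer1a (0.775), Ms4a2 (0.751), Gata2 (0.586) and Kit (0.348). Over the 8 arrays without OX40L-JAG1 the order was another. Fcer1g (0.912), Gata2 (0.806), Cpa3 (0.797) and Hdc (0.751) came first there. Prss34 (0.549), Ms4a2 (0.475), Kit (0.454), Cd200r3 (-0.083) and Fcer1a (-0.134) followed.

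Among the same 8909 genes, those most like Kit over the 12 arrays were Emb (0.882), Rnf32 (0.877), Gramd3 (0.856), Pnpla7 (0.849) and Idh2 (0.848). By ranks (Spearman), Pnpla7 was at 0.462 and the others at 0.678 to 0.895. None of the 8 genes most like Mcpt8 was among them. That follows from the low correlation of Kit with Mcpt8 (0.348) and adds nothing to it. Over the 8 arrays without OX40L-JAG1, Kit was nearest to Gata2 (0.838), Cpa3 (0.822) and Prss34 (0.780) among the other 9. Over the same 8 arrays the correlation of Cpa3 was 0.797 with Mcpt8, about that with Kit.

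**Figure D4:**
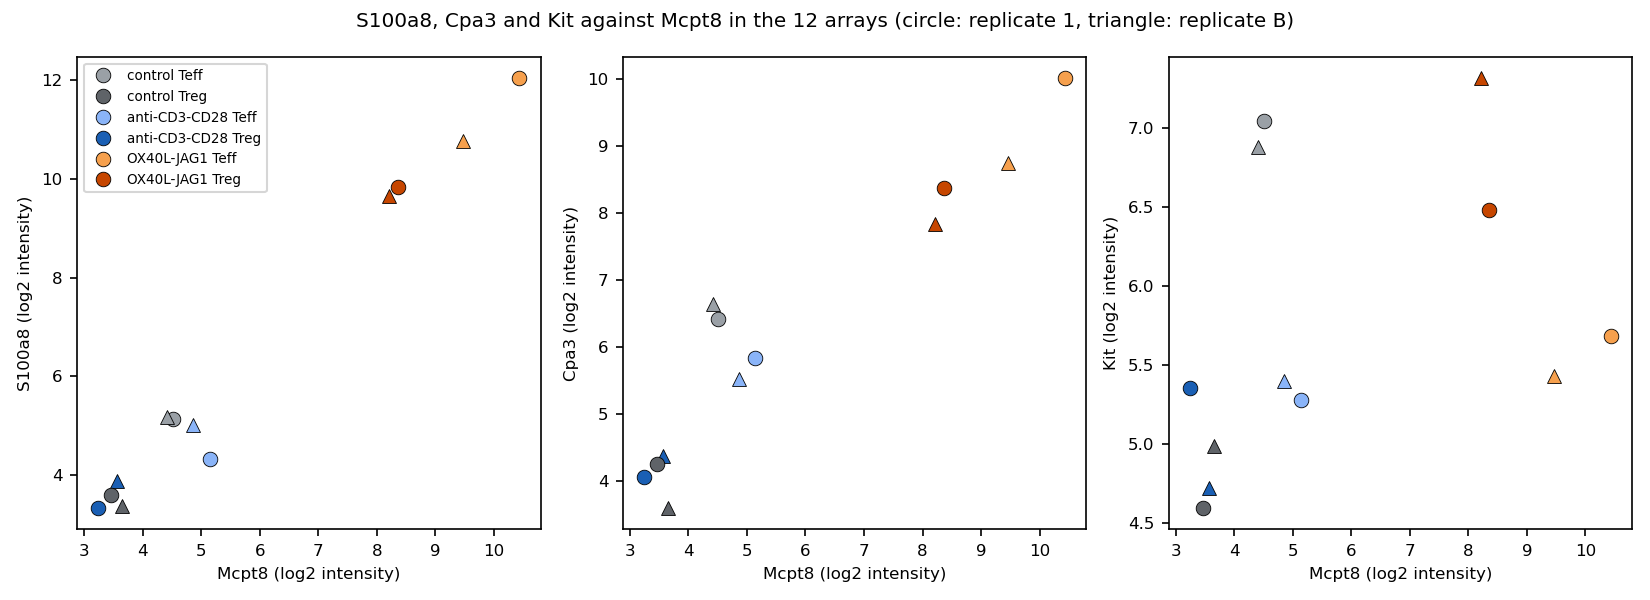
S100a8, Cpa3 and Kit (y axes) against Mcpt8 (x axes), log2 intensity, in the 12 arrays. Circles are replicate 1 and triangles replicate B. S100a8 and Cpa3 are high in the 4 arrays in which Mcpt8 is high, and Cpa3 is also raised in control Teff cells, while Kit is high in control Teff and OX40L-JAG1 Treg cells.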

How the data were processed

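Each of 12 total RNA samples was hybridised to its own Affymetrix Mouse Gene 2.0 ST array. The deposited values are log2 intensities that the authors made with RMA, per the submitters' processing notes. Its version was not given in the sources at hand. RMA compresses low intensities, which tends to understate differences of dim genes, and depth has no meaning for arrays. This need not hold for the OX40L-JAG1 Teff arrays, whose medians were higher and spread narrower. After quantile normalization their log2 difference from control fell from 1.63 to 1.25 for Cd200r3, from 2.93 to 2.83 for Fcer1a and from 0.67 to 0.53 for Ms4a2. It grew for Mcpt8, Prss34, Fcer1g, Hdc, Cpa3 and Gata2. The number of arrays limits the precision.

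Of 41345 rows, the 23521 with exactly 1 gene symbol were used, and for genes with several rows the one with the highest mean, which left 22180 genes. Values were used as deposited. limma 3.58.1 in R 4.3.3 fitted 1 mean a group over 12 arrays (6 residual degrees of freedom, so the spread of the OX40L-JAG1 Teff arrays enters every standard error), with Benjamini-Hochberg adjusted, two-sided p-values over all genes and a threshold of 0.05. The procedure was tested on simulated data. The 10 genes were tested where no OX40L-JAG1 array enters and are otherwise described by the values of the arrays. The members, the lists, the tests and the alternatives were chosen with earlier results of these data known.

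Genes named are the 10, the first 3 measured genes of each list and up to 5 called in an OX40L-JAG1 comparison by size, the 8 most like Mcpt8 and 5 most like Kit, and Foxp3, Cd3e and Cd4. Others (Elane, Prtn3, Ear6, Hnmt, Hrh4, Gzmb, Ctsg, Itgb3, Cd209a and the dim genes listed) were named after their values were seen. Promoter windows are RefSeq sequences of GRCm38.p6. The build behind the array annotation was likewise not given.

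Replicates of different groups share the names 1 and B. The 15 correlations of their deviations ran from -0.0693 to 0.182. The highest, 0.182, was that of OX40L-JAG1 Treg with OX40L-JAG1 Teff cells. Whether replicates of the same name shared a culture was not tested. The replicate block was used as an alternative only. Other alternatives were dim genes left out, trend and robust shrinkage, quantile normalization, a common median, array weights, averaging the rows of a gene, only the arrays compared, each array left out, and the OX40L-JAG1 Teff arrays left out. For the lists the alternatives were chosen after seeing the data.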

Additional observations from a re-analysis of the deposited data

Results flagged for a closer look

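Kit differed between the sorts in its response to anti-CD3-CD28 by a tested difference of 1.87 on the log2 scale (limma, Treg minus Teff). Of all genes, 13.1% passed this test, and it uses the fresh Treg arrays by which the genes were chosen, so its p-value is not independent of that choice. The OX40L-JAG1 response, each minus fresh cells, went in opposite directions in the sorts, with both arrays of one above and both of the other below their controls, for 4 genes: the Treg minus Teff difference was 3.51 for Kit (2.11 against -1.40), 2.49 for Il7r (1.47 against -1.03), 2.05 for Gata1 (1.10 against -0.95) and 2.49 for the integrin chain Itgb3 (1.71 against -0.78). These 4 differences between the sorts were not tested. After quantile normalization Kit kept both directions, at 2.00 in Treg and -1.16 in Teff cells. In OX40L-JAG1 Teff cells 0 of the 11 growth and alarmin receptors, with Il7r among them, were then called lower. The same held for 0 of the 8 platelet markers, which include Itgb3, and for 2 of the 16 transcription factors.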

How the results depend on the processing

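Of 1050 values of the 10 genes under alternatives, 988 kept their direction and side of the threshold, 50 newly passed, 12 no longer passed and 0 reversed. Genes of the 10 called between control Treg and control Teff cells numbered 2, and 5 with the OX40L-JAG1 Teff arrays left out, with only the arrays compared or with array weights (1 to 5 over single arrays left out). Between the anti-CD3-CD28 sorts the count was 2, and 5, 4 and 4 under those 3 settings (0 to 5 over single arrays left out). For anti-CD3-CD28 against control it was 1 in Teff cells, and 3, 2 and 3 (1 to 3), and 0 in Treg cells under every setting run. For the interaction it was 1, and 3, 2 and 2 (0 to 3). With the replicate block these counts were 2, 2, 1, 0 and 1, so the block changed no call among the 10. The cause of these shifts was not tested.

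The median OX40L-JAG1 difference of the 10 genes became, after quantile normalization, 2.84 from control and 2.91 from anti-CD3-CD28 in Teff cells and 1.52 from anti-CD3-CD28 in Treg cells. With single arrays left out it was 1.42 to 2.69 from control and 1.34 to 2.68 from anti-CD3-CD28 in Teff cells, 1.46 to 1.59 from control and 1.44 to 1.72 from anti-CD3-CD28 in Treg cells, and -1.61 to -0.66 between the OX40L-JAG1 sorts. Both lows in Teff cells and the -0.66 came without OX40L-JAG1 Teff replicate 1, and 1.44 without OX40L-JAG1 Treg replicate B. With a common array median, the Teff difference from control was 1.95. List genes called over 9 comparisons numbered 512, 510 with the replicate block and 410 to 774 with single arrays left out, the highest without OX40L-JAG1 Teff replicate B. Signal near the background limits Fcer1a, Ms4a2, Cd200r3 and Gata2 most.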
